A study of Danio rerio with 16 samples.

Results

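Chromatin accessibility was examined at 9 zebrafish genes that encode core regulators of blood formation, namely runx1, runx2a, runx2b, runx3, cbfb, myb, gfi1aa, gfi1ab and gfi1b. Peaks that the authors listed as more open in either of 2 sorted endothelial populations were taken where the nearest gene was one of these, which gave 15 of the 9466 listed peaks. They belong to 8 of the 9 genes, out of 5023 genes named by a listed peak, and runx1 itself had none. These populations were DP-R1hi, the haemogenic endothelium (HE) of the floor of the dorsal aorta, and DP-R1lo, the aortic roof endothelium (ARE). Both were flow sorted at 28 to 30 hours post fertilization from pooled, dissociated wild-type (labelled Wt) TgBAC(runx1P2:Citrine);Tg(kdrl:mCherry) embryos, which carry a Citrine reporter in a bacterial artificial chromosome (BAC) with both runx1 promoters and an endothelial mCherry transgene. DP-R1hi cells are double positive with high Citrine and DP-R1lo cells are double positive with low Citrine. Per the study's methods, the Citrine gates were set so that DP-R1hi was most enriched for haemogenic markers. The markers it measured in the gated cells included cmyb (myb) and gfi1aa. Differences at myb and gfi1aa may therefore not be independent of how DP-R1hi was chosen. The study also called gfi1ab HE-specific from RNA of DP-R1hi and DP-R1lo, so that its peak is not independent of this contrast either. The ATAC-seq series holds 16 libraries from 5 sorted populations in triplicate and 1 genomic DNA control, of which DN, SP-kdrl and DP-R1med were not analysed here. ATAC-seq records where the Tn5 transposase inserts adapters into open DNA.

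Runx proteins bind DNA through the Runt domain and do so more tightly together with Cbfb, their partner subunit, which does not itself contact DNA. In vertebrates Runx1 is required for endothelial cells of the aorta to turn into blood stem cells. In mouse, Gfi1 and Gfi1b are targets of Runx1 in this step, and these zinc-finger repressors recruit the histone demethylase Kdm1a and its CoREST partners through their SNAG domain to silence endothelial genes. Myb is an activator that definitive blood stem cells need in both mouse and zebrafish. The teleost genome duplication left the pairs runx2a and runx2b, and gfi1aa and gfi1ab.

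The values are the authors' group means on a log2 scale of normalised reads per peak. There are no values per replicate, so no error and no test can be given for any difference below, and library depth is unknown. Every listed peak had already passed the authors' filter on this same contrast, so that a listed peak differs by selection and only its direction, size and place are described. A larger share of cells with an open site and more open sites per cell cannot be told apart in sorted bulk samples. The lowest level in the lists was -0.14 in DP-R1hi (0.908 normalised reads) and -0.27 in DP-R1lo (0.829 normalised reads), and for a peak at this level no fold is given.

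Of the 15 peaks, 11 were more open in DP-R1hi and 4 in DP-R1lo. This is 73.3% in favour of DP-R1hi, against 40.8% of all listed peaks. By role, all 5 peaks of the Gfi1 genes and all 3 of myb were more open in DP-R1hi, the 4 peaks of the Runx genes were divided 2 to 2, and cbfb had 1 more open in DP-R1hi and 2 in DP-R1lo. The median difference (DP-R1hi minus DP-R1lo, log2) was 1.56 over the 15 peaks and -1.89 over all listed peaks. With an absolute log2 difference of at least 2, 6 of 10 peaks (60.0%) were more open in DP-R1hi, against 35.6% of listed peaks of that size. Both promoter peaks, at myb and gfi1aa, were more open in DP-R1hi, as were 48.0% of all listed promoter peaks.

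**Figure D1:**
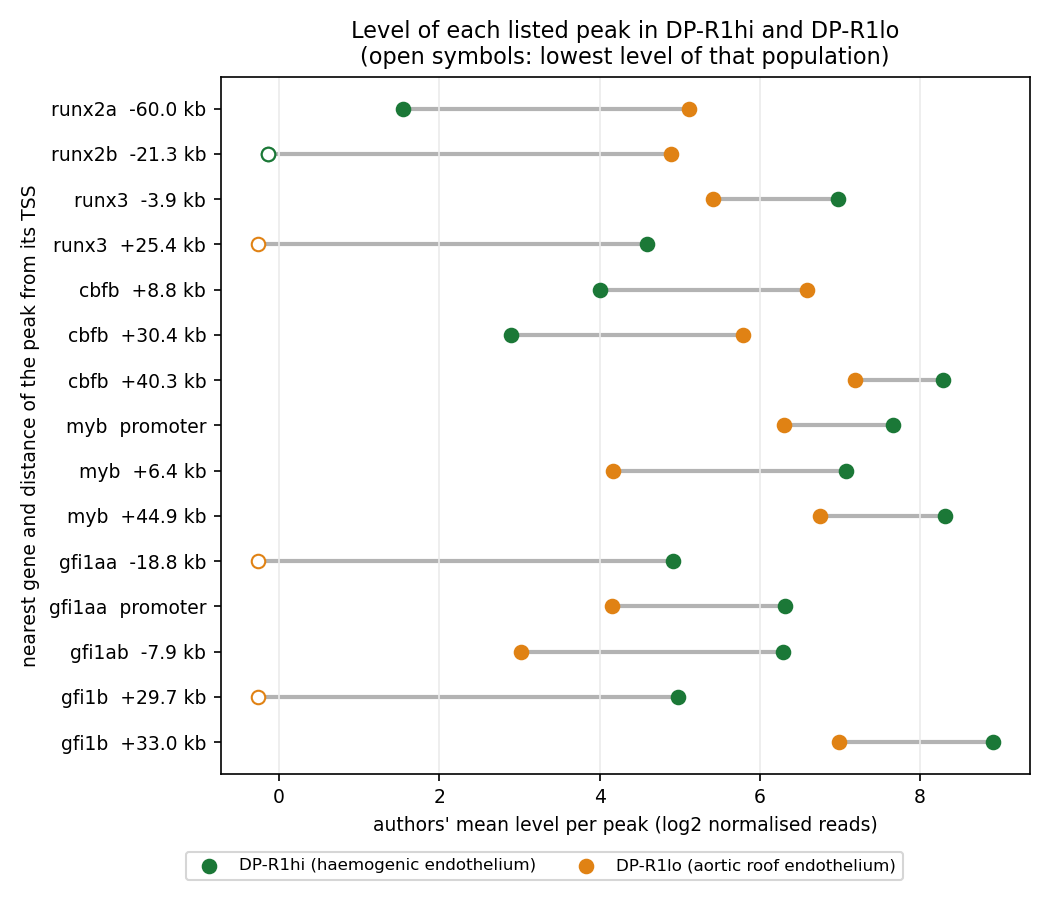
Level of each of the 15 peaks in DP-R1hi (green) and DP-R1lo (orange), as the authors' mean in log2 normalised reads (horizontal axis), ordered by gene with the distance from the transcription start site (TSS); open symbols mark the lowest level of a population. Green lies to the right of orange in all 8 peaks of myb and the Gfi1 genes, whereas runx2a, runx2b and the first 2 peaks of cbfb show the opposite order.

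gfi1aa had 2 listed peaks, 18.4 kb apart, on chromosome 2 (GRCz10 coordinates throughout). The promoter peak (chr2:10982930-10983386, 13 bp from the TSS) had a level of 6.31 in DP-R1hi and 4.15 in DP-R1lo (log2), or 79.3 and 17.8 normalised reads, a 4.47-fold difference. The upstream peak (chr2:10964209-10964501, intergenic, 18790 bp before the TSS) stood at 4.92 in DP-R1hi and at the lowest level, -0.27, in DP-R1lo. The promoter was thus above the lowest level in both populations, and the upstream element in DP-R1hi alone. Per kb of peak the promoter held 174 reads in DP-R1hi and 38.8 in DP-R1lo, and the upstream peak 103 reads in DP-R1hi and 2.83 in DP-R1lo.

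Within 100 kb of the gfi1aa TSS there were 5 more listed peaks, all assigned to neighbouring genes and divided in direction. Upstream, a pair next to rpl5a, a ribosomal protein gene, was more open in DP-R1hi, with 5.95 in DP-R1hi and 0.30 in DP-R1lo at -57.0 kb, and 4.92 in DP-R1hi and the lowest level in DP-R1lo at -58.4 kb. The third rpl5a peak, in intron 6 of 7 at -77.2 kb, was more open in DP-R1lo (0.79 in DP-R1hi, 4.67 in DP-R1lo). Downstream, 2 peaks in introns of rpap2, which encodes an RNA polymerase II-associated protein, were also more open in DP-R1lo. They had 2.56 in DP-R1hi and 6.67 in DP-R1lo at 31.0 kb, and 0.79 in DP-R1hi and 5.57 in DP-R1lo at 39.6 kb. Listed DP-R1hi peaks thus lay at and before the gfi1aa TSS, and those behind it were DP-R1lo peaks.

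gfi1ab, the duplicate of gfi1aa, had a single listed peak (chr6:29024604-29024997, intergenic, 7905 bp upstream). Its level was 6.29 in DP-R1hi and 3.02 in DP-R1lo, a 9.65-fold difference (78.2 and 8.11 normalised reads). No other listed peak lay within 100 kb of it, and its promoter was not listed. The duplicates therefore differed in which kind of element was listed, a promoter and an upstream peak for gfi1aa but an upstream peak alone for gfi1ab.

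gfi1b, the relative of Gfi1 that acts in erythroid and megakaryocytic cells as well, had 2 peaks 2.7 kb apart and far downstream of its TSS. The farther one (chr21:17225883-17226786, intergenic, 33040 bp downstream) had a level of 8.91 in DP-R1hi and 6.99 in DP-R1lo, or 481 and 127 normalised reads, 3.78-fold. Per kb it was the most open of the 15 in DP-R1hi (532 reads per kb, against 141 in DP-R1lo). Its difference in reads per kb exceeded that of 95.6% of the 3864 peaks listed as more open in DP-R1hi. Its neighbour (chr21:17229487-17229880, intergenic, 29691 bp downstream) stood at 4.98 in DP-R1hi and at the lowest level in DP-R1lo. The closest listed peak on the other side of the gene, in intron 9 of 21 of tsc1b, a gene of the complex that restrains mTOR, was more open in DP-R1lo (5.44 in DP-R1hi, 7.03 in DP-R1lo).

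myb had 3 peaks, all more open in DP-R1hi. Of the 1004 genes with at least 3 listed peaks, 88 (8.76%) had all of them in that direction. This set includes genes with more than 3 peaks, so that it is not matched to myb in number of peaks. The promoter peak (chr23:31888403-31889349, 16 bp before the TSS) held 202 normalised reads in DP-R1hi and 78.8 in DP-R1lo, 2.57-fold (7.66 and 6.30 on the log2 scale). Its log2 difference of 1.36 lay close to the median of 1.19 for the 243 promoter peaks more open in DP-R1hi. The peak in intron 8 of 15 (chr23:31895050-31895599, 6432 bp downstream) held 134 reads in DP-R1hi and 18.0 in DP-R1lo, 7.46-fold (7.07 and 4.17). The intergenic peak (chr23:31933433-31934134, 44891 bp downstream) held 317 reads in DP-R1hi and 108 in DP-R1lo, 2.95-fold (8.31 and 6.75). Thus the largest fold at myb lay inside the gene, and the promoter and the distal element were well above the lowest level in both populations.

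These 3 peaks stood inside a longer run. The run was extended from myb on each side until the first listed peak more open in DP-R1lo, so that its single direction follows from this definition. It went from chr23:31806777 to chr23:31965478, over 159 kb, and held 8 listed peaks, of which only 3 have myb as nearest gene. How common runs of this length are among all listed peaks was not counted. The others were assigned to aldh8a1, hbs1l and mtfr2. In intron 4 of 17 of hbs1l, a translation factor gene that neighbours MYB in human as well, a peak 27.3 kb upstream of myb had 6.62 in DP-R1hi and 4.18 in DP-R1lo. A second, in intron 5 at -29.5 kb, had 4.78 in DP-R1hi and the lowest level in DP-R1lo. In human, the interval between HBS1L and MYB is known to hold enhancers of MYB. The zebrafish peaks at hbs1l lay inside that gene, and no listed peak fell between them and the myb promoter peak. Whether they correspond to the human enhancers was not tested.

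Downstream, the run ended with 2 peaks next to mtfr2, which encodes a mitochondrial fission regulator. They had 6.01 in DP-R1hi and 0.30 in DP-R1lo at 57.5 kb from the myb TSS, and 7.79 in DP-R1hi and 2.16 in DP-R1lo at 76.4 kb. At 5.71 and 5.63 on the log2 scale, these differences were larger than those of the peaks assigned to myb. Upstream of the run, at -84.9 and -88.0 kb, 2 peaks nearest to aldh8a1 were more open in DP-R1lo (2.68 in DP-R1hi and 5.99 in DP-R1lo, and 5.57 in DP-R1hi and 7.36 in DP-R1lo). The nearest-gene rule does not show which gene any of these elements acts on.

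**Figure D2:**
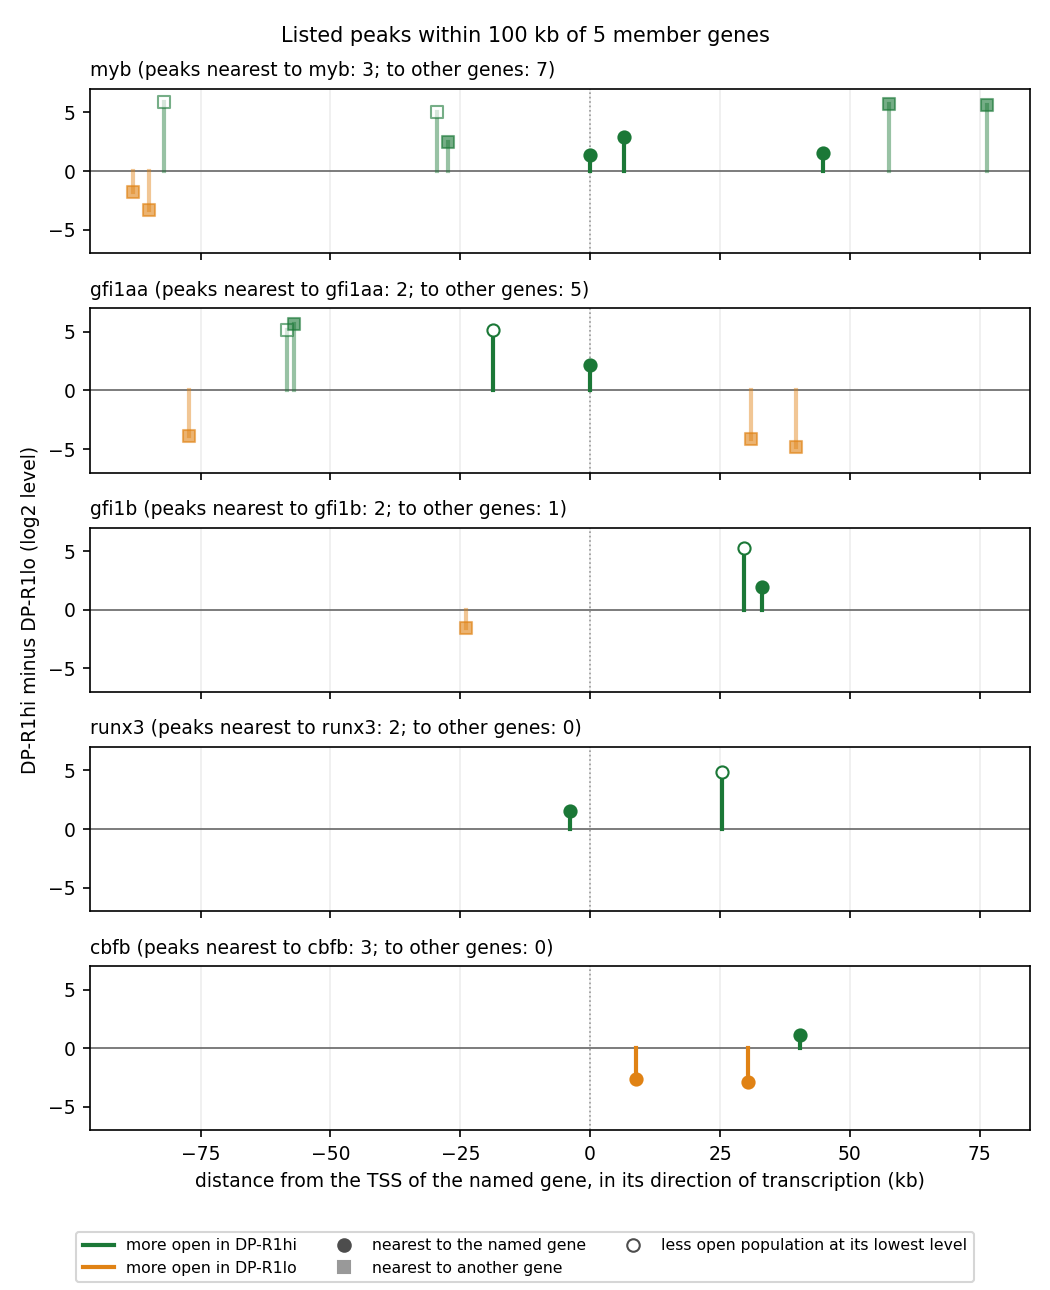
Difference in log2 level, DP-R1hi minus DP-R1lo (vertical axis), of every listed peak within 100 kb of the TSS of myb, gfi1aa, gfi1b, runx3 and cbfb, by distance from the TSS in the direction of transcription (kb); circles are peaks nearest to the named gene, squares those nearest to another gene, and open symbols have the less open population at its lowest level. Of 10 peaks around myb, 8 are more open in DP-R1hi, and the 3 cbfb peaks lie on both sides of 0.

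No listed peak was assigned to runx1, and none to the genes on either side of it, donson and urp2. An unlisted region may be open alike in both populations or may not have passed the authors' filter, and these cannot be told apart from the lists. The gate itself was set on the runx1 reporter. The BAC adds copies of the runx1 locus, whose reads cannot be told apart from those of the native gene.

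runx3, which in mammals acts in T cells and sensory neurons, was the Runx gene with peaks more open in DP-R1hi. A peak 3928 bp upstream of its TSS (chr13:45021911-45022705, intergenic) had a level of 6.97 in DP-R1hi and 5.41 in DP-R1lo, or 125 and 42.5 normalised reads, 2.95-fold. A shorter one in intron 3 of 7 (chr13:44992835-44993086, 25420 bp downstream) stood at 4.59 in DP-R1hi and at the lowest level in DP-R1lo. No peak of another gene was listed within 100 kb of the runx3 TSS.

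Both runx2 duplicates, whose mammalian counterpart directs bone formation, had 1 peak each, and both were more open in DP-R1lo. The runx2a peak (chr17:5134636-5134979) lies 60019 bp upstream of the TSS in intron 3 of 11 of supt3h, a gene that lies beside RUNX2 in human too. Its level was 1.54 in DP-R1hi and 5.11 in DP-R1lo, or 2.91 and 34.5 normalised reads, 11.9-fold higher in DP-R1lo. The runx2b peak (chr20:44179193-44179520, intergenic, 21330 bp upstream) stood at the lowest level in DP-R1hi and at 4.89 in DP-R1lo. Both were distal and stood alone, with no other listed peak within 100 kb.

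Of the 5 genes with at least 2 listed peaks, cbfb was the only one with peaks in both directions. Among all genes with at least 2 listed peaks, 966 of 2142 had both. These are not matched to the 5 in number of peaks. All 3 cbfb peaks lay in intron 3 of 5 on chromosome 18. The peak at chr18:23013480-23014279 held 16.1 normalised reads in DP-R1hi and 96.3 in DP-R1lo, 5.98-fold higher in DP-R1lo (4.01 and 6.59 on the log2 scale). The next, chr18:23035094-23035900, held 7.41 reads in DP-R1hi and 55.3 in DP-R1lo, 7.46-fold higher in DP-R1lo (2.89 and 5.79). Only 8.73 kb further on, chr18:23044635-23046150 held 313 reads in DP-R1hi and 146 in DP-R1lo, 2.14-fold (8.29 and 7.19). This last peak had the smallest log2 difference of the 15, 1.1, and the cbfb promoter was not listed. Among the neighbouring genes, mef2aa, a muscle and vascular transcription factor gene, had 3 listed peaks and all were more open in DP-R1lo. None of them lay within 100 kb of the cbfb TSS. At gfi1b, the neighbouring gene atp2a2b likewise had 3 peaks outside that distance, all more open in DP-R1hi.

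The 11 peaks more open in DP-R1hi fell into kinds by their level in DP-R1lo. In 5 of them (runx3 upstream, cbfb, the myb promoter and distal peaks and the stronger gfi1b peak) DP-R1lo was itself at 5.41 to 7.19, and DP-R1hi was 1.1 to 1.92 above it. In 3 (the myb intron, the gfi1aa promoter and gfi1ab) DP-R1lo was at 3.02 to 4.17 and the difference was 2.16 to 3.27. In the other 3 (runx3 intron, gfi1aa upstream and the weaker gfi1b peak) DP-R1lo was at its lowest level. Peaks at a lowest level were short, at 252 to 394 bp over the 4 such peaks of both directions, and reached only 4.59 to 4.98 where open. The other 11 were 344 to 1516 bp long and reached 5.11 to 8.91. Lowest-level peaks made up 27.3% of the 11 more open in DP-R1hi, against 18.8% of the 3864 listed in that direction.

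The level also bears on the direction of the whole list. Among listed peaks with a level of 4 to 5 in the more open population, 27.8% were more open in DP-R1hi, and this share was 33.4% at 5 to 6, 40.9% at 6 to 7, 51.4% at 7 to 8 and 63.6% at 8 to 9. By the same levels the Runx, Cbfb, Myb and Gfi1 genes had 3 of 4, 0 of 2, 3 of 4, 2 of 2 and 3 of 3 peaks more open in DP-R1hi. The strongest 5 were thus in a range where most listed peaks had this direction. The part of the level in the split was not tested.

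**Figure D3:**
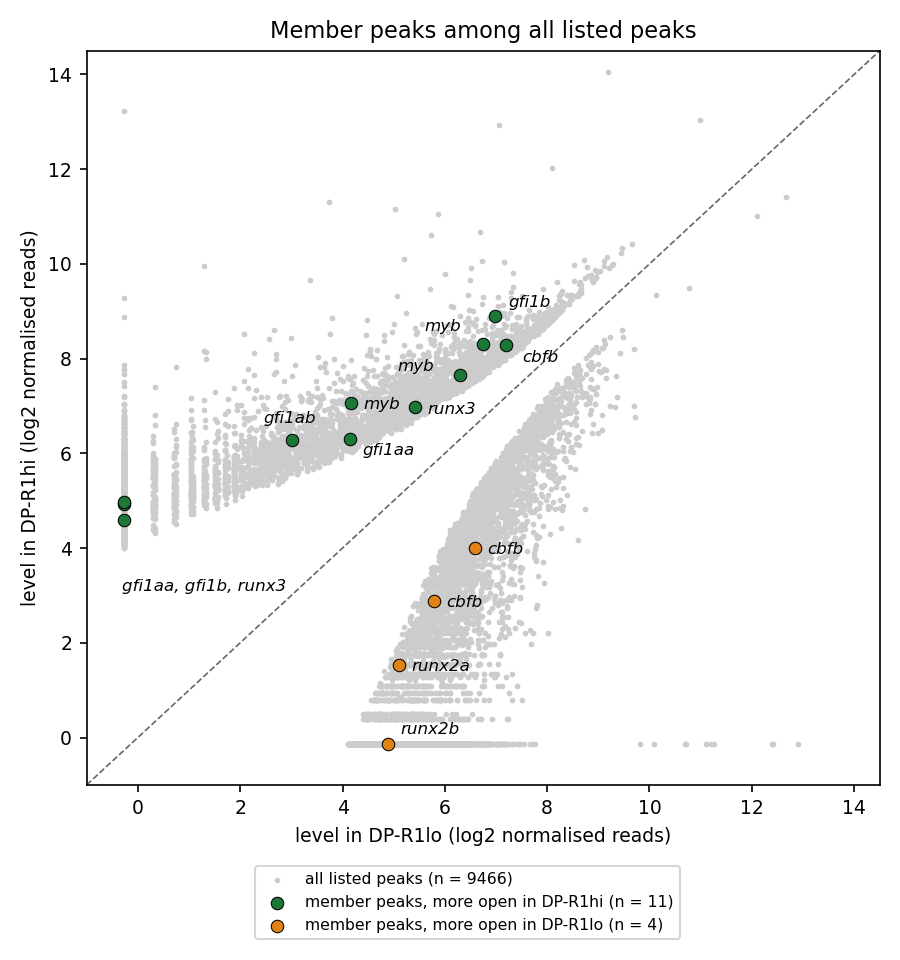
Level in DP-R1hi (vertical axis) against level in DP-R1lo (horizontal axis), both in log2 normalised reads, for all 9466 listed peaks (grey) and the 15 peaks of the Runx, Cbfb, Myb and Gfi1 genes (green more open in DP-R1hi, orange in DP-R1lo), with the line of equal levels dashed. The 11 green points run along the DP-R1hi side of the empty band left by the authors' filter, which narrows towards higher levels, and 3 of them stand at the lowest DP-R1lo level.

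By position, 2 of the 15 peaks were at a promoter, 6 in introns and 7 between genes. Introns thus held 40.0% of them, against 24.8% of all listed peaks, and intergenic DNA 46.7%, against 62.8%. Of the 7 intergenic peaks 6 (85.7%) were more open in DP-R1hi, against 40.6% of all listed intergenic peaks. The 6 intronic peaks were divided 3 to 3 (50.0%), against 40.0% of all listed intronic peaks. Of these 6, 3 lay in the same intron of cbfb, so that they are not independent of each other. All 11 peaks more open in DP-R1hi lay within 50 kb of their TSS, and of the 14 peaks within that distance they made up 78.6%, against 41.9% of all listed peaks so placed.

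Genes that work with these factors were not all of 1 direction. Of 32 corepressor and coactivator genes, 14 had a listed peak, where 31.1% of all zebrafish genes with a curated mRNA had one. These 14 had 11 peaks more open in DP-R1hi and 20 in DP-R1lo (35.5%), near the 40.8% over all listed peaks. The largest differences were at hdac9b, a histone deacetylase gene (lowest level in DP-R1hi, 5.60 in DP-R1lo), at the Groucho corepressor genes tle3b (lowest level in DP-R1hi, 5.46 in DP-R1lo) and tle3a (lowest level in DP-R1hi, 5.31 in DP-R1lo), which had 2 of 4 and 3 of 7 peaks more open in DP-R1hi, and at sin3aa (4.98 in DP-R1hi, lowest level in DP-R1lo). These peaks of hdac9b, tle3b, tle3a and sin3aa lay 4.35, 108, 5.19 and 12.3 kb from the TSS. The order here and in the lists below is by log2 difference. It includes peaks at a lowest level, whose difference rests on that level, and could change in reads per kb. Named after their values were seen, the partners of Gfi1 proteins were divided. Their peaks lay 95.9 and 38.1 kb (kdm1a) and 16.2 and 31.9 kb (rcor2) from the TSS. Both peaks of kdm1a were more open in DP-R1lo (7.03 in DP-R1hi and 8.49 in DP-R1lo, and 6.82 in DP-R1hi and 8.31 in DP-R1lo), and both of rcor2, a CoREST gene, in DP-R1hi (7.05 in DP-R1hi and 4.60 in DP-R1lo, and 7.32 in DP-R1hi and 5.89 in DP-R1lo).

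Of the 6 relatives and fusion partners of Myb and Runx, 2 had a peak, runx1t1 and mybl2b. Over all zebrafish genes with a curated mRNA, 31.1% had one. The 2 genes had 4 peaks more open in DP-R1hi and 1 in DP-R1lo (80.0%), against 40.8% of all listed peaks. All 3 peaks of runx1t1, the corepressor known as ETO that is fused to RUNX1 in human leukaemia, were more open in DP-R1hi, the largest with 6.16 in DP-R1hi and 2.56 in DP-R1lo. mybl2b, a cell cycle relative of myb, had 1 peak with 5.33 in DP-R1hi and the lowest level in DP-R1lo, and another with 5.10 in DP-R1hi and 7.30 in DP-R1lo. These mybl2b peaks lay 5.55 and 157 kb from the TSS. Of 31 blood transcription factor genes that act with Runx1, 24 had a peak, against 31.1% of all genes with a curated mRNA. They had 22 peaks more open in DP-R1hi and 29 in DP-R1lo. This share of 43.1% is near the 40.8% over all listed peaks. The 4 with the largest differences, the ETS factor genes fli1b, ets1 and erg and the GATA factor gene gata3, all had these in favour of DP-R1lo. However, ets1 and gata3 each also had 1 peak more open in DP-R1hi. Of the 24 genes, 9 had peaks more open in DP-R1hi only, 10 in DP-R1lo only and 5 in both directions. Over all genes named by a listed peak, 34.8% had peaks more open in DP-R1hi only. The peaks with the largest differences lay 11.8 kb (fli1b), 59.3 kb (ets1), 3.51 kb (erg) and 405 kb (gata3) from the TSS. fli1b, for instance, was at the lowest level in DP-R1hi and at 6.04 in DP-R1lo.

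Of 29 genes known as targets of Runx1 or Myb in blood formation, 16 had a peak, against 31.1% of all genes with a curated mRNA. They had 19 peaks more open in DP-R1hi and 15 in DP-R1lo (55.9%). Over all listed peaks the share was 40.8%. Several of these genes, among them dnmt3ba, angpt1, pik3cd and irf1b, were called HE-specific by the study from RNA of DP-R1hi and DP-R1lo. The share of this list is thus not independent of the contrast. The largest differences were at dnmt3ba, a DNA methyltransferase gene (2 peaks, at 6.89 and 6.65 in DP-R1hi and both at the lowest level in DP-R1lo, and 1 more at the lowest level in DP-R1hi and 4.34 in DP-R1lo), at the leucocyte gene lcp1 (5.43 in DP-R1hi, lowest level in DP-R1lo), at the CD41 integrin gene itga2b (lowest level in DP-R1hi, 5.82 in DP-R1lo, with 1 of its 3 peaks in the other direction) and at the chemokine receptor gene cxcr4a (0.40 in DP-R1hi, 5.73 in DP-R1lo). From the TSS, the dnmt3ba peaks lay 7.15, 2.85 and 55.8 kb away, and those of lcp1, itga2b and cxcr4a 27.1, 47.1 and 10.3 kb. The Gfi1 genes and myb had none of their 8 peaks more open in DP-R1lo, and their difference from these lists was not tested.

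**Figure D4:**
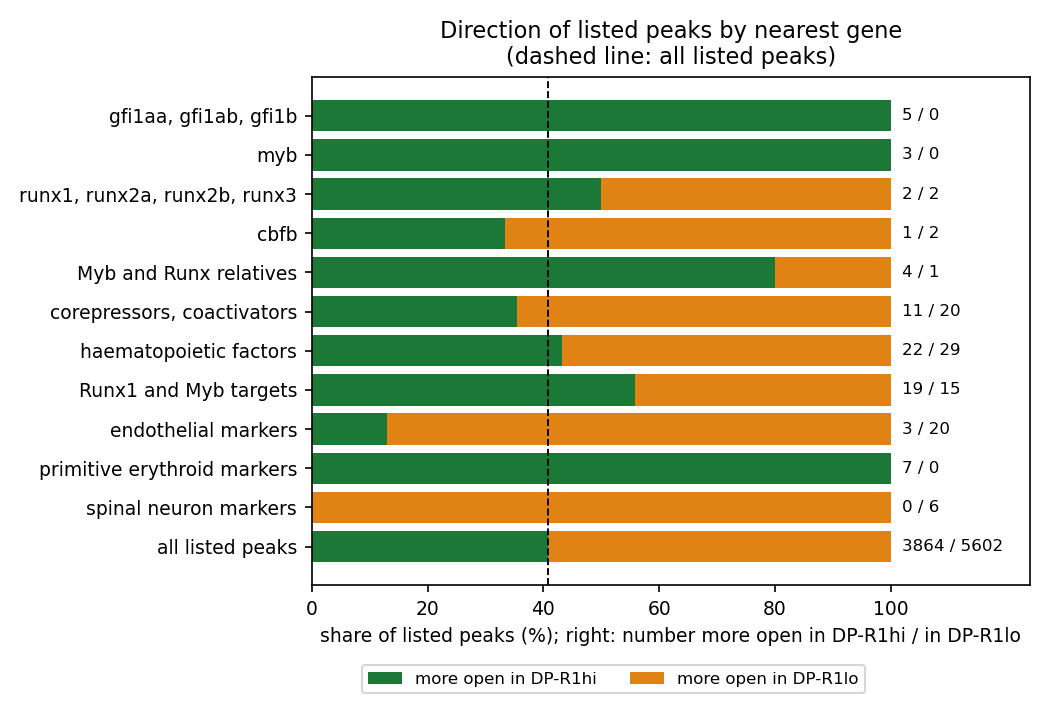
Share of listed peaks (horizontal axis, %) more open in DP-R1hi (green) and in DP-R1lo (orange) for the Gfi1 genes, myb, the Runx genes, cbfb, the lists of related genes and the cell type markers, with the numbers of peaks at the right and the share over all listed peaks (40.8%) as a dashed line. The Gfi1 genes, myb and the erythroid markers are green throughout, and the endothelial markers are mostly orange.

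Markers of cell types were also listed in this contrast. For comparison, 40.8% of all listed peaks were more open in DP-R1hi, and 31.1% of all genes with a curated mRNA had a listed peak. The marker lists are short, and their difference from these shares was not tested. Sums of reads below run over listed peaks alone. They restate the direction of these selected peaks and do not measure the marker genes as a whole. Endothelial and arterial markers had 3 peaks more open in DP-R1hi and 20 in DP-R1lo over 6 of 7 genes, with 944 normalised reads summed in DP-R1hi and 2390 in DP-R1lo, and tbx20 had none. The promoter peak of kdrl, whose transgene was used in the sort of both populations, was at the lowest level in DP-R1hi and at 6.26 in DP-R1lo, a peak named after its values were seen. All 5 kdrl peaks were more open in DP-R1lo. A peak 74.3 kb from the TSS was also at the lowest level in DP-R1hi, and the rest stood at 3.80, 4.13 and 6.63 there. The study does not state which kdrl DNA the transgene holds. Reads at these peaks may therefore mix the native gene and the transgene. Primitive erythroid markers had 7 peaks over 4 of 6 genes, all more open in DP-R1hi (791 summed reads in DP-R1hi, 224 in DP-R1lo), among them gata1a (5.56 in DP-R1hi, 1.70 in DP-R1lo) and the slc4a1a promoter (7.90 in DP-R1hi, 6.60 in DP-R1lo). The globin genes hbae1.1 and hbbe1.1 had no listed peak. Myeloid markers had 3 peaks over 2 of 5 genes, all more open in DP-R1hi (305 summed reads in DP-R1hi, 62.2 in DP-R1lo). Spinal neuron markers had 6 peaks over 5 of 5 genes, all more open in DP-R1lo (13.0 summed reads in DP-R1hi, 241 in DP-R1lo), and muscle markers 1 over 1 of 3 genes, at myog (0.908 reads in DP-R1hi, 28.6 in DP-R1lo). gfi1aa, gfi1b and myb are known from blood cells of the embryo as well as from HE, and runx3 from T cells and neurons. All listed peaks of gfi1aa, gfi1b, myb and runx3 were more open in DP-R1hi. So were the erythroid and myeloid marker peaks, whereas the spinal neuron marker peaks were more open in DP-R1lo. The part of other cell types in the values of these genes was not tested.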

How the data were processed

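ATAC-seq libraries had been made from 5 sorted populations in triplicate and from genomic DNA. Before deposition, the authors trimmed reads with Trimmomatic 0.32, aligned them to GRCz10 with BWA 0.7.12, called peaks with MACS against genomic DNA, counted reads with featureCounts, compared DP-R1hi and DP-R1lo by DiffBind with edgeR and annotated peaks with HOMER 3.0. Per the study's methods, 1 outlying replicate of each of DP-R1hi and DP-R1lo was left out and an absolute log2 fold change filter was applied. The deposited lists have no header. They hold, per peak, the authors' log2 mean over both groups, their log2 mean per group and the distance to the nearest TSS in bp, besides the authors' log2 fold change, which was not used. Which group a column holds was read from the direction of each list, and the mean over both groups equalled the log2 of the average of the 2 group means within 0.01 in all 9466 peaks. A fold is 2 to the power of the difference between group levels. Group means pool replicates and hide their spread, and the depth per sample is unknown.

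Peaks were taken by the symbol of the nearest gene, in both lists. The 2 genes on each side were looked up in RefSeq (GRCz12tu), used for names and order only. For genes with several peaks, the TSS and strand were recovered from the deposited distances, and all listed peaks within 100 kb were then taken. From each related list, up to 4 genes with the largest absolute difference were named, and other names were chosen after their values were seen. The genes and lists were chosen with earlier results of these data known. Counts were set beside those over all listed peaks, with no test. The counting was tested on simulated lists. Alternatives were other difference and distance limits, leaving out peaks at the lowest level, assignment by RefSeq accession and 1 peak per gene. No sequence is given and no motif was searched. Tables were handled in pandas 2.3.3 (Python 3.11.15, numpy 2.4.6), scipy 1.17.1 gave the limits for the alternatives, and plots were drawn with matplotlib 3.10.9.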

Additional observations from a re-analysis of the deposited data

How the results depend on the processing

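The share of peaks more open in DP-R1hi was 73.3% and ranged from 60.0% to 83.3% over 7 alternatives, always above the share over all listed peaks. None of the alternatives left out myb, gfi1aa and gfi1ab. The peaks of these genes were all more open in DP-R1hi and may not be independent of the gate or the contrast. The range therefore does not cover their part in the share. The counts moved more than the share. With peaks within 10 kb of the TSS alone, 6 peaks of 5 genes were left, 5 more open in DP-R1hi and 1 in DP-R1lo. With 1 peak per gene, 8 peaks were left, of which 5 were more open in DP-R1hi. With an absolute log2 difference of at least 2, 6 were more open in DP-R1hi. The median difference was then 2.53, against 1.56 over all 15 peaks. Of 42 recomputed values 7 moved and none turned round. A limit of 1 on the absolute log2 difference and the assignment by RefSeq accession left every value as it was. Most of the 42 are counts, which cannot turn round, so that only the share and the median difference could have done so. No paired analysis was possible because each value is the authors' mean of a group, and leaving out replicates was not run for the same reason. Depth, the spread between replicates and regions that passed no filter are not known from the lists, so that an unlisted gene such as runx1 cannot be called unchanged.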

Other observations

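The order of the peaks by size of difference depended on the scale. Ranks were taken among the 3864 peaks listed as more open in DP-R1hi. On the log2 scale, the 3 peaks at the lowest DP-R1lo level (runx3 intron, gfi1aa upstream and the weaker gfi1b peak) had larger absolute differences than 82.2% to 87.1% of these. The 5 peaks with a DP-R1lo level above 5 had larger ones than only 9.01% to 31.3%. In reads per kb the 3 at the lowest DP-R1lo level differed by 78.0 to 100.0 reads per kb, more than 9.14% to 20.6% of the 3864 peaks. The 5 with a DP-R1lo level above 5 differed by 104 to 392, more than 23.1% to 95.6%. At gfi1b both kinds stand 2.7 kb apart. The distal myb peak differed by more reads per kb than 90.6% of the 3864 peaks, and on the log2 scale by more than 21.4%. A reader who ranks these elements would thus pick different ones by fold and by reads.

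A listed peak was assigned to 8 of the 9 genes (88.9%), against 31.1% of the 15470 zebrafish genes with a curated mRNA in RefSeq (4807). Of the 8, 5 genes (62.5%) had peaks more open in DP-R1hi only, against 34.8% of the 5023 genes named. The number of peaks a gene can be given depends on the length of the DNA around it, whose part was not tested. Of the 36 neighbouring genes looked up, 2 on each side of each gene, 10 had a listed peak, with 10 peaks more open in DP-R1hi and 9 in DP-R1lo.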
